A study of Mus musculus with 272 samples.

Results

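The lineage transcription factors described here are 41 genes that direct the formation of tissues other than skeletal muscle. They are given by name among the 21938 protein-coding genes of GENCODE M21 (mm10), by a rule that uses no measured value but was written with earlier results of these data known, and all 41 names matched a gene. By the lineage each gene is best known for, 16 were placed with the neural and glial lineages, 9 with endoderm, 7 with blood and spleen, 4 with heart, 3 with kidney and 2 with the sclerotome, the part of the somite that forms vertebrae. The study edited loci in mouse muscle stem cells (MuSCs) in vivo and mapped the chromatin of the same kind of cell, and of its 272 samples the 8 chromatin libraries are used here. They cover 4 features in 2 replicates each, open chromatin by ATAC-seq and the histone marks H3K4me3, H3K27me3 and H3K27ac by ChIP-seq. All 8 came from GFP+ cells sorted from the hindlimb muscle of Pax7Cas9 mice, in which Pax7-driven Cre switches on Cas9 and EGFP from the Rosa26 locus, so that the sort follows Cre activity and not the *Pax7* protein itself. The labels of these 8 libraries give neither age nor strain, name no treatment, and do not say whether the replicates are different animals. Every library has its own list of MACS2 peaks. There is no second cell type or condition among them, and every comparison below is between genes, between marks or between the 2 replicates.

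A stem cell committed to muscle keeps in its genome the master regulators of every other lineage. H3K27me3, deposited by Polycomb repressive complex 2, is typical of the promoters of silent developmental regulators, most of which lie in CpG islands. H3K4me3 is deposited at promoters that carry unmethylated CpG islands or are transcribed, H3K27ac accompanies active promoters and enhancers, and ATAC-seq reports open chromatin. A promoter that bears both H3K4me3 and H3K27me3 is called bivalent, a state known from embryonic stem cells.

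Since CpG content and H3K27me3 are linked in this way, the 250 bp upstream of the 5′ end of 6 members are shown first, from mm10 and on the gene's own strand, with every CG in capitals. No annotated exon reaches into any of these stretches. *En1* had no H3K27me3 peak and the strongest H3K4me3 and H3K27ac of all 41 genes, *Olig1* carried both H3K4me3 and H3K27me3, *Cdx2* carried H3K27me3 alone, *Spi1* carried H3K4me3 without H3K27me3, *Hnf4a* had an ATAC-seq peak in 1 replicate and nothing else, and *Gata1* had no peak in any list. They lie at chr1:120602168-120602417 (*En1*), chr16:91269522-91269771 (*Olig1*), chr5:147307271-147307520 (*Cdx2*, minus strand), chr2:91082140-91082389 (*Spi1*), chr2:163506558-163506807 (*Hnf4a*) and chrX:7978072-7978321 (*Gata1*, minus strand).
*En1*: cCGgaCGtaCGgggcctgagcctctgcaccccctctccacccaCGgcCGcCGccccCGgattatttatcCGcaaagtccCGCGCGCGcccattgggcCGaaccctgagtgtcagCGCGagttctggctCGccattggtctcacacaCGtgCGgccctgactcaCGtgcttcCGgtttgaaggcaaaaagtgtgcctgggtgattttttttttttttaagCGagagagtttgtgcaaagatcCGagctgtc
*Olig1*: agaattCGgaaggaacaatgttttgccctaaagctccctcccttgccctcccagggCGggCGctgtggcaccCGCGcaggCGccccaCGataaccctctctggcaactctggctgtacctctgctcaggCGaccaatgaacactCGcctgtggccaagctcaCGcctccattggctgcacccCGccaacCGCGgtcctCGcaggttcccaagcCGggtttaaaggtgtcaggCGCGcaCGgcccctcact
*Cdx2*: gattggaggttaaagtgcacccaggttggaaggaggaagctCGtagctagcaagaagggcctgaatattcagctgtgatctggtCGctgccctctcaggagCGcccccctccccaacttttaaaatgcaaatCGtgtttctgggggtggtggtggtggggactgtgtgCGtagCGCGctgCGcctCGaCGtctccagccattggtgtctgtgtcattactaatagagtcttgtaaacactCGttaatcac
*Spi1*: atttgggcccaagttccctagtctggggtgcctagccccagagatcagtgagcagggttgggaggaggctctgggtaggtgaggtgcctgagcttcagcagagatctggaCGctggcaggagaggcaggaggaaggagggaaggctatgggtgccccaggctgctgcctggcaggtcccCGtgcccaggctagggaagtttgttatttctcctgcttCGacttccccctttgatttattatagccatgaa
*Hnf4a*: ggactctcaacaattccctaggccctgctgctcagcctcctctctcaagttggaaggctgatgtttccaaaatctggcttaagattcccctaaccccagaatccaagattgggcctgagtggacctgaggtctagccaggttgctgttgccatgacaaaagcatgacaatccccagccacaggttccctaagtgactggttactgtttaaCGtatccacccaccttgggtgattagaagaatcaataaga
*Gata1*: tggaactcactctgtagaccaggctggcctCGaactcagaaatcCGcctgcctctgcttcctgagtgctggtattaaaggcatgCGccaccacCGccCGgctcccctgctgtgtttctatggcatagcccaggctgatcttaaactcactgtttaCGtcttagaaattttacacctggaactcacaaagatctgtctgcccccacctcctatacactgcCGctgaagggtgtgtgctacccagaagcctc
The stretch held 22 CG at *En1*, 18 at *Olig1*, 11 at *Cdx2*, 7 at *Gata1*, 3 at *Spi1* and 1 at *Hnf4a*. All 41 members had at least 1 CG there, as did 92.4% of the protein-coding genes, and the medians were 12 CG for the members and 8 for all protein-coding genes.

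A member counted as marked where a peak of both replicates reached into its promoter, the window from 3 kb before to 3 kb after any of its annotated start sites. At 19 members the start site of another gene also lay within 3 kb, and at 3 that of a protein-coding gene, so that a peak there may belong to the neighbour. The members differed most from the background in H3K27me3 and H3K27ac. H3K27me3 was listed at 34 of the 41 promoters (82.9%), while over all protein-coding genes it was listed at 4.81%. H3K4me3 was listed at 24 members, or 58.5%, against 60.8% of all protein-coding genes, and ATAC-seq peaks at 29, or 70.7%, against 67.8%, so that for these features the members' shares were near the background. Their strongest ATAC-seq peaks were weaker, with median folds of 9.23 and 6.22 in replicates 1 and 2 against 13.3 and 12.2. They were also narrower, at 136 and 224 bp against 424 and 521 bp. Fewer overlapped a peak of the other replicate, 52.8% and 89.7% against 87.9% and 97.3%. H3K27ac was listed in both replicates at a single member, *En1*, or 2.44% of the 41, against 46.6% of all protein-coding genes. No interval is given for these shares because the lists carry no read numbers, and a promoter without a listed peak may still hold signal below the peak caller's limit.

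**Figure D1:**
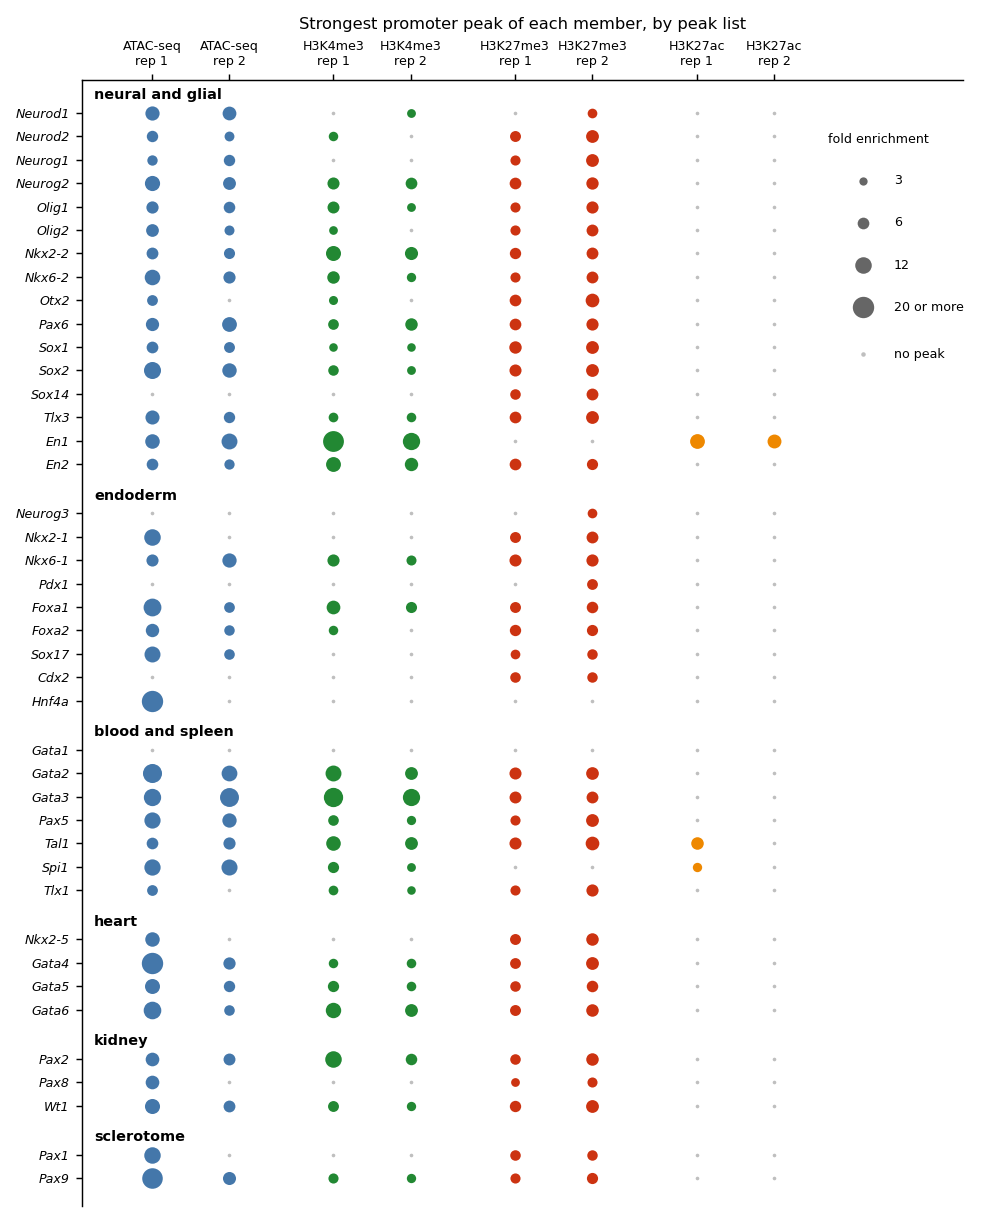
Strongest promoter peak of each of the 41 members (rows, by lineage) in each of the 8 peak lists (columns); dot area is proportional to the fold enrichment of that peak, capped at 20, and a small grey point means no peak. The H3K27me3 columns are filled at 34 members in replicate 1 and 37 in replicate 2, and the H3K27ac columns at 3 and 1.

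Taken by replicate, H3K27me3 was listed at 34 members in replicate 1 and at 37 in replicate 2, against 5.66% and 7.64% of protein-coding genes. The 3 genes added by replicate 2 were *Neurod1*, *Neurog3* and *Pdx1*, and none was marked in replicate 1 alone. ATAC-seq peaks were listed at 36 and 29 members, against 72.4% and 68.6%, H3K4me3 peaks at 28 and 25, against 62.9% and 60.9%, and H3K27ac peaks at 3 and 1, against 50.1% and 47%. The H3K27me3 calls rest on weak peaks. That mark's lists go down to a −log10 p of 3.01, and a q of at most 0.05 was reached by 52.7% of its peaks in replicate 1 and 61.5% in replicate 2. With H3K27me3 peaks of a q of at most 0.05, 33 members remained marked (only *Pax8* was lost) against 3.25% of protein-coding genes. With a −log10 q limit of 5 in every list, 10 were marked against 0.501%, namely *Neurog2*, *Otx2*, *Pax6*, *Sox1*, *Sox2*, *Tlx3*, *Nkx6-1*, *Gata2*, *Gata3* and *Tal1*.

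**Figure D2:**
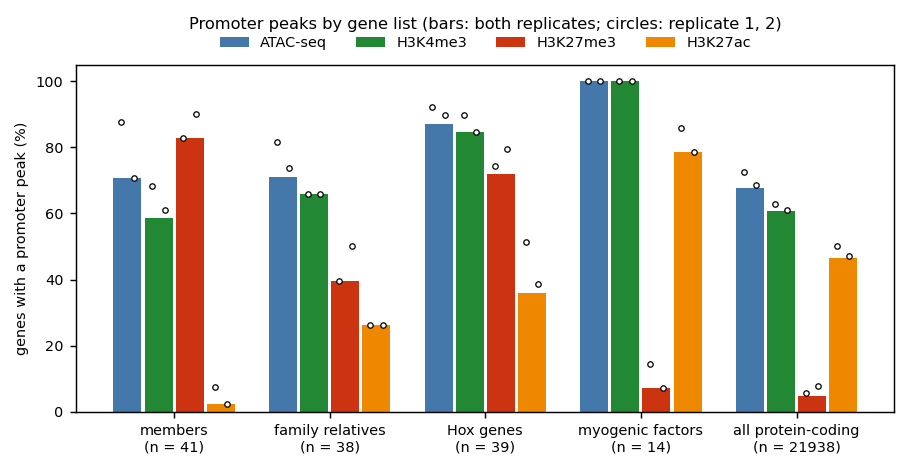
Share of genes with a promoter peak (y axis, %) in 5 gene lists; bars require a peak in both replicates, and the circles give replicate 1 (left) and replicate 2 (right). Among the 41 members the H3K27me3 bar stands at 82.9% and the H3K27ac bar at 2.44%, while among all protein-coding genes they stand at 4.81% and 46.6%.

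By combination of H3K4me3 and H3K27me3 in both replicates, 22 members had both marks (53.7%, against 3.85% of protein-coding genes), 12 had H3K27me3 without H3K4me3 (29.3%, against 0.957%), 2 had H3K4me3 without H3K27me3 (4.88%, against 56.9%) and 5 had neither (12.2%, against 38.3%). The members with both marks were *Neurog2*, *Olig1*, *Nkx2-2*, *Nkx6-2*, *Pax6*, *Sox1*, *Sox2*, *Tlx3*, *En2*, *Nkx6-1*, *Foxa1*, *Gata2*, *Gata3*, *Pax5*, *Tal1*, *Tlx1*, *Gata4*, *Gata5*, *Gata6*, *Pax2*, *Wt1* and *Pax9*. The 12 with H3K27me3 without H3K4me3 were *Neurod2*, *Neurog1*, *Olig2*, *Otx2*, *Sox14*, *Nkx2-1*, *Foxa2*, *Sox17*, *Cdx2*, *Nkx2-5*, *Pax8* and *Pax1*. *En1* and *Spi1* had H3K4me3 without H3K27me3, and *Neurod1*, *Neurog3*, *Pdx1*, *Hnf4a* and *Gata1* had neither mark in both replicates. In 5 members the replicates differed on H3K4me3, which was listed in replicate 1 only at *Neurod2*, *Olig2*, *Otx2* and *Foxa2* and in replicate 2 only at *Neurod1*. The count with both marks depends on the start sites searched, and with only the one at the gene's 5′ end it was 16. For that setting no share of all protein-coding genes with both marks is given. H3K27me3, with or without H3K4me3, was listed there at 34 members (82.9%) against 4.27% of protein-coding genes. Taken singly, replicate 1 gave both marks at 26 members, against 4.91% of protein-coding genes, and replicate 2 at 23, against 5.94%. H3K27me3 without H3K4me3 was found at 8 members in replicate 1, against 0.748%, and at 14 in replicate 2, against 1.7%. ATAC-seq and H3K27me3 peaks were both listed in both replicates, anywhere in the promoter, at 26 members (63.4%, against 4.25%). They overlapped each other by at least 1 bp at 22 of these 26 in replicate 1 and at all 26 in replicate 2. Among the 932 protein-coding genes with both kinds of peak, 54.6% and 63.2% had such an overlap. The libraries are bulk preparations of sorted cells, so that a mark on some of the cells and a weaker mark on all of them, or both marks on 1 chromosome copy and each mark in different cells, cannot be told apart.

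Where both marks were called they also lay on each other. Of the 22 such members, 22 had an H3K4me3 peak overlapping an H3K27me3 peak by at least 1 bp in replicate 1, and 21 had one in replicate 2, where *Gata3* did not. Counted by peak, 36 of 37 H3K4me3 promoter peaks of these members overlapped H3K27me3 in replicate 1 and 28 of 31 in replicate 2. Among all 845 protein-coding genes with both marks, 665 (78.7%) had such an overlap in replicate 1 and 692 (81.9%) in replicate 2. By peak, the overlap was 63.0% of 1239 peaks and 68.7% of 1218 peaks. H3K27me3 also covered more of the members' promoters, a median of 32.9% and 51.5% against 3.36% and 4.93% over all marked genes. The part of this wider coverage in the overlap was not tested.

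The H3K4me3 of these genes was weak. The strongest H3K4me3 promoter peak of the 22 members with both marks had a median fold enrichment of 6.33 in replicate 1 (range 3.23 to 16.3) and 4.21 in replicate 2 (3.21 to 13). Over the 845 protein-coding genes with both marks the medians were 10.6 and 8.42, and over the 12483 with H3K4me3 without H3K27me3 they were 25.3 and 18.2. Width went the same way in replicate 2, with a median of 522 bp for the members against 989 bp for the 845 genes, and was close in replicate 1, at 1275 against 1345 bp. By the strongest peak of each gene, the members' H3K27me3 was on the stronger side of a mark with low values throughout. That peak was the highest of more peaks at the members. They had a median of 8 and 9 H3K27me3 promoter peaks in replicates 1 and 2, against 2 in each for all marked protein-coding genes. The part of this in the fold was not tested. The median fold of the strongest peak was 5.25 in replicate 1, over the 34 members marked there, and 6.50 in replicate 2, over 37, and the medians for all protein-coding genes marked in those lists were 4.13 and 4.11. These folds are coarse, since the 34 members shared 12 different values in replicate 1 and the 37 shared 17 in replicate 2, and the order of members with close values is not resolved.

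**Figure D3:**
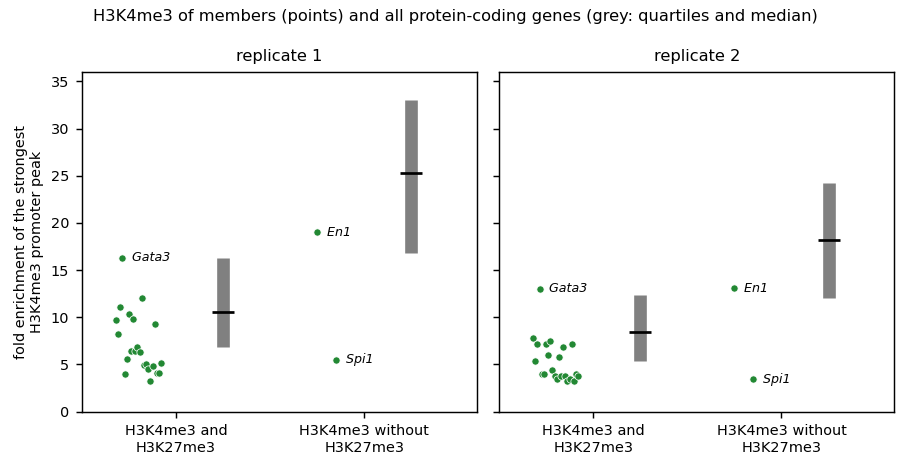
Fold enrichment (y axis, linear) of the strongest H3K4me3 promoter peak in replicates 1 and 2, for members with both H3K4me3 and H3K27me3 (22 points) and with H3K4me3 without H3K27me3 (En1 and Spi1); grey bars span the lower to the upper quartile of all protein-coding genes in the same state and the black line is their median. The members with both marks have medians of 6.33 and 4.21, below the medians of 10.6 and 8.42 of all genes in that state.

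Among the neural and glial factors, 14 of 16 had H3K27me3 in both replicates, 9 of them together with H3K4me3. The proneural bHLH factors *Neurog1* and *Neurog2* commit progenitors to the neuronal fate, and *Neurod1* and *Neurod2* act after them in differentiating neurons. *Neurog2* was the most covered of these 4 genes, with H3K27me3 peaks over 79.4% of its promoter in replicate 1 and 93.6% in replicate 2, a strongest H3K27me3 fold of 6.00 and 6.66, and an H3K4me3 peak of fold 6.39 and 6.02. *Neurog1* had H3K27me3 at 4.50 and 7.19 fold, ATAC-seq peaks of 4.70 and 5.68 fold, and no H3K4me3 peak in either replicate. *Neurod2* had H3K27me3 at 5.25 and 7.19 fold and H3K4me3 in replicate 1 only, at 3.95 fold. *Neurod1* stood apart from the other 3, with H3K27me3 at 4.11 fold and H3K4me3 at 3.41 fold, each in replicate 2 only. Its ATAC-seq peaks (8.85 and 8.32 fold) had their summits 2423 and 2437 bp from its own start site and 343 and 329 bp from that of the noncoding gene *Gm26755*, and the H3K4me3 summit lay 50 bp from the latter, so that they cannot be ascribed to *Neurod1*. The H3K27me3 summit lay 2405 bp from the start site of *Neurod1* and 2371 bp from that of the protein-coding gene *Cerkl*. It cannot be ascribed to either of these genes.

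*Olig1* and *Olig2*, the neighbouring bHLH genes of the oligodendrocyte and motor neuron lineages, lie 41.1 kb apart on chromosome 16. Both had H3K27me3, with a fold of 4.50 and 6.50 at *Olig1* and of 4.50 and 6.16 at *Olig2*. They differed in H3K4me3, which was listed at 6.28 and 3.41 fold at *Olig1* and in replicate 1 only, at 3.33 fold, at *Olig2*. The homeodomain factors of ventral neural progenitors were similar to each other. *Nkx2-2* had H3K27me3 at 5.63 and 6.16 fold with H3K4me3 at 9.87 and 7.53, and *Nkx6-2* had 4.50 and 6.16 with H3K4me3 at 6.82 and 3.81. Both had ATAC-seq peaks in both replicates and no H3K27ac. In replicate 1 the H3K4me3 summit at *Nkx2-2* lay 1400 bp from its own start sites and 618 bp from that of the antisense gene *Nkx2-2os*. The H3K27me3 summit there lay 1644 bp from its own and 624 bp from that of the antisense gene *6430503K07Rik*. In replicate 2 these summits lay 321 and 213 bp from its own start sites.

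The factors that set up and maintain neural progenitors had long H3K27me3 domains. *Sox1* and *Sox2*, SoxB1 factors of the neural stem cell (*Sox2* is also needed for pluripotency), had H3K27me3 folds of 6.75 and 7.19 at *Sox1* and 6.38 and 7.19 at *Sox2*. Their H3K4me3 was among the lowest of the members with both marks, at 3.23 and 3.21 fold for *Sox1* and 4.85 and 3.41 for *Sox2*. Joining H3K27me3 peaks no more than 3 kb apart gave domains of 27 and 28 kb at *Sox2* and 19 and 25 kb at *Sox1*. *Pax6*, required for the eye, the forebrain and the endocrine pancreas, had the longest domain in both replicates, 34.4 and 33.7 kb, with 28 promoter peaks in each, although its 24 annotated start sites give it 28.4 kb of promoter to search. Its H3K27me3 fold was 6.00 and 6.50 and its H3K4me3 fold 5.03 and 6.81. *Otx2*, a forebrain and midbrain factor, had H3K27me3 folds of 6.00 and 8.21 and a domain of 13.2 and 23.2 kb, with H3K4me3 (3.59 fold) and ATAC-seq (5.11 fold) in replicate 1 only.

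*Sox14* and *Tlx3* act in the differentiation of particular neurons. *Sox14* was the barest of the neural promoters under H3K27me3, with 4.88 and 6.16 fold for that mark and no peak of ATAC-seq, H3K4me3 or H3K27ac in either replicate. *Tlx3* had H3K27me3 at 6.00 and 7.19 fold, H3K4me3 at 4.13 and 4.01 and ATAC-seq at 8.69 and 5.64.

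The engrailed genes showed opposite states. *En1* (chr1:120602418-120607992) patterns the midbrain, the hindbrain and the ventral limb bud and is expressed in the dermomyotome of the somite, and *En2* is its paralog in the midbrain and cerebellum. *En1* had the strongest H3K4me3 of the 41 genes, at 19 fold over a peak of 6712 bp in replicate 1 and 13.1 fold over 3550 bp in replicate 2. It had H3K27ac of 9.58 and 8.46 fold with summits 537 and 596 bp into the gene, ATAC-seq peaks of 9.27 and 11.1 fold, and no H3K27me3 promoter peak in either replicate. No other annotated start site lay within 3 kb of it. *En2* had H3K27me3 at 6.00 and 5.48 fold in domains of 18.4 and 22 kb, H3K4me3 at 9.69 and 7.82 and no H3K27ac. In H3K27ac, *Pax7*, the defining factor of MuSCs, had 15 and 14.7 fold, *Myod1*, the myogenic determination factor, had 15.5 and 10.6, and *Six4*, a homeodomain factor of the myogenic programme, had 9.51 and 6.99, so that *En1* lay below *Pax7* and *Myod1* and near *Six4*. In H3K4me3, *Pax7* had 19 and 12.6 fold, *Myod1* 24.2 and 19.4 and *Six4* 30.5 and 18.3. The medians of the 14 myogenic factors were 25.9 and 18.2. *En1* was close to *Pax7* and below *Myod1*, *Six4* and these medians. It was above *Pax3* (8.08 and 10), *Myf6* (9.17 and 9.12) and *Myog* (3.95 and 3.81). In H3K27ac, the medians of the 12 and 11 myogenic factors with a peak were 15.4 and 11.6. *Pax3* and *Myog* had no H3K27ac peak, and *Mef2c* had one in replicate 1 only, at 3.45 fold.

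**Figure D4:**
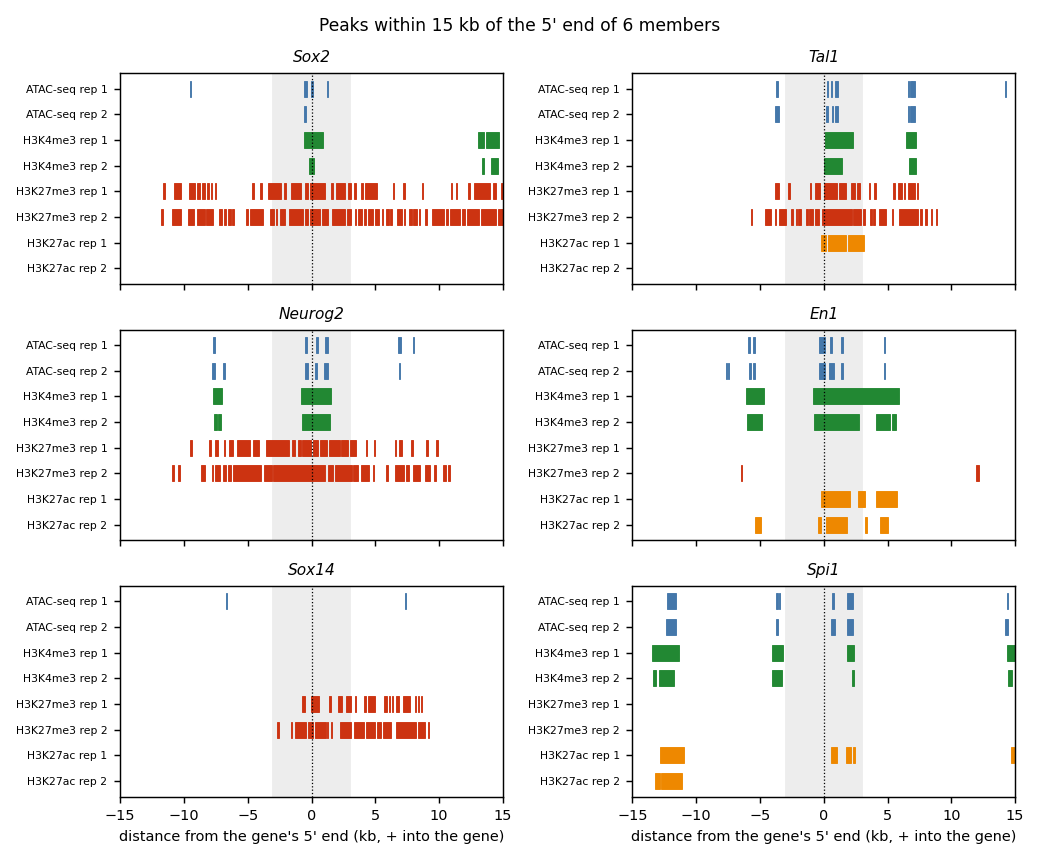
Peaks of the 8 lists within 15 kb of the 5′ end of 6 members (x axis, distance in kb, positive into the gene; one row per list; bars span each peak, drawn to scale with a thin outline); the dotted line is the 5′ end and the grey band the 3 kb on either side. Sox2, Neurog2 and Sox14 carry rows of H3K27me3 peaks, Tal1 carries them with H3K27ac in replicate 1 only, and En1 and Spi1 carry none in the band.

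Of the endoderm factors, 6 of 9 had H3K27me3 in both replicates and 2 of these, *Nkx6-1* and *Foxa1*, also had H3K4me3. None had H3K27ac in either replicate. *Foxa1* and *Foxa2* are pioneer factors of liver, pancreas and lung. *Foxa1* had H3K27me3 at 5.24 and 5.82 fold and H3K4me3 at 8.26 and 5.41, and *Foxa2* had H3K27me3 at 5.63 and 5.48 with H3K4me3 in replicate 1 only, at 3.95. *Nkx6-1*, a factor of pancreatic beta cells that also acts in the ventral neural tube, had H3K27me3 over 78.4% and 88.7% of its promoter, with folds of 6.38 and 6.50, and H3K4me3 at 6.46 and 4.41.

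*Nkx2-1*, *Cdx2* and *Sox17* had H3K27me3 and no H3K4me3 peak in either replicate. *Nkx2-1*, which specifies lung and thyroid and acts also in the ventral forebrain, had 5.25 and 6.16 fold and ATAC-seq in replicate 1 only, at 12 fold. *Cdx2*, the intestinal and trophectoderm factor, had 4.88 and 4.79, and *Sox17*, a factor of definitive endoderm that is also expressed in endothelium, had 4.13 and 4.79. *Sox17* had ATAC-seq peaks in both replicates, of up to 11.2 and 4.93 fold, but neither of its 2 peaks in one replicate overlapped a peak of the other. *Cdx2* had none in either.

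The replicates disagreed on H3K27me3 at 2 endoderm genes. *Pdx1*, the master regulator of the pancreas, which lies 25 kb from *Cdx2*, had none in replicate 1 and 7 promoter peaks in replicate 2, with a fold of 5.13 and a domain of 9.15 kb. *Neurog3*, which commits endocrine progenitors of the pancreas, had none in replicate 1 and 4 peaks in replicate 2, with a fold of 4.11 and a domain of 1.87 kb. Neither gene had a peak of any other list, and none of their replicate 2 peaks overlapped a peak of replicate 1. Both also have a neighbour's start site within 3 kb, the noncoding *Plut* for *Pdx1* and the protein-coding *Fam241b* for *Neurog3*. *Hnf4a* (chr2:163506808-163572910), a regulator of hepatocytes and gut, had no H3K27me3, H3K4me3 or H3K27ac peak. Its only signal was ATAC-seq in replicate 1, at 19.9 fold and 2713 bp from the nearest start site, and no peak of replicate 2 overlapped it.

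In the blood and spleen group, 5 of 7 had H3K27me3 in both replicates, and all 5 also had H3K4me3. *Gata2* and *Tal1* act in haematopoietic stem cells and endothelium, *Gata3* in T cells, *Pax5* in B cells, and *Tlx1* in the formation of the spleen. *Gata3* had the strongest H3K4me3 of the members with both marks, at 16.3 and 13 fold, with H3K27me3 at 6.22 and 6.16 fold. Its H3K4me3 summits lay 159 and 232 bp from one of its own 6 start sites, and 2 protein-coding neighbours, *4930412O13Rik* and *9230102O04Rik*, start within 3 kb of it. With only the start site at its 5′ end, *Gata3* kept H3K27me3 but did not have both marks. *Gata2* had H3K4me3 at 11.1 and 7.21 fold, H3K27me3 at 6.38 and 7.06 and ATAC-seq at 15.9 and 10.9 fold, the highest value of the group in replicate 1. *Pax5* had H3K27me3 at 4.50 and 7.19 fold with H3K4me3 at 4.97 and 3.76, and *Tlx1* had 4.50 and 6.50 with H3K4me3 at 4.13 and 3.21 and ATAC-seq in replicate 1 only, at 5.10 fold.

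*Tal1* (chr4:115056426-115071755) was the only member with peaks of all 4 features in 1 replicate. Its H3K27me3 was 6.38 fold in replicate 1 and 8.21 in replicate 2, its H3K4me3 9.33 and 7.21, and its ATAC-seq 5.96 and 6.50. H3K27ac was listed in replicate 1 only, at 6.90 fold with a −log10 q of 10.1, and the nearest H3K27ac peak of replicate 2 lay 56.0 kb away. *Spi1* (chr2:91082390-91115756), which encodes PU.1 of the myeloid and B lineages, was the only member besides *En1* with H3K4me3 and no H3K27me3. Its H3K4me3 was 5.50 and 3.41 fold, its ATAC-seq 11.6 and 11.3 fold with summits 1920 and 1930 bp from the nearest start site, and its H3K27ac was listed in replicate 1 only, at 3.83 fold. The nearest H3K27ac peak of replicate 2 lay 11.1 kb from a *Spi1* start site. *Gata1* (chrX:7959260-7978071), the erythroid and megakaryocyte factor, was the one member with no promoter peak in any of the 8 lists, a state shared by 25.9% of protein-coding genes.

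Markers of other cell types were looked up beside these genes. Over all protein-coding genes, peaks in both replicates were listed at 67.8% for ATAC-seq, 60.8% for H3K4me3, 4.81% for H3K27me3 and 46.6% for H3K27ac. Each list of markers of another cell type lay below these shares in H3K4me3 and H3K27ac. In ATAC-seq only the fibro-adipogenic markers did. Of 8 blood markers (*Ptprc*, *Cd68*, *Itgam*, *Csf1r*, *Cd3e*, *Laptm5*, *Coro1a* and *Tyrobp*), 6 had ATAC-seq peaks in both replicates, 3 had H3K4me3 (*Cd68*, *Laptm5* and *Coro1a*), none had H3K27me3 and 1, *Cd68*, had H3K27ac. In replicate 1, where *Spi1* and *Tal1* had H3K27ac, 5 of the 8 blood markers had H3K4me3 and 3 had H3K27ac. In replicate 2 it was 3 and 2. Open chromatin went the other way, with 6 blood markers listed in replicate 1 and 8 in replicate 2. Replicate 1 also gave larger shares of all protein-coding genes. With H3K4me3 it listed 62.9% of them (replicate 2, 60.9%), and with H3K27ac 50.1% (replicate 2, 47%). Where listed, the strongest H3K4me3 peaks of the blood markers ranged from 3.77 to 18.3 fold in replicate 1 and from 4.21 to 18 in replicate 2. Of 10 endothelial markers, 8 had ATAC-seq peaks, 5 had H3K4me3 (*Tek*, *Kdr*, *Esam*, *Egfl7* and *Cldn5*), none had H3K27me3 and 1, *Tek*, had H3K27ac in both replicates. Of 10 fibro-adipogenic markers, 6 had ATAC-seq peaks, 5 had H3K4me3, 1 (*Pdgfra*) had H3K27me3 and 3 (*Dpt*, *Col15a1* and *Cd55*) had H3K27ac in both replicates. Of 9 neuron markers, 7 had ATAC-seq peaks, 4 had H3K4me3, 3 (*Gad1*, *Slc17a7* and *Rbfox3*) had H3K27me3 and 1 (*Camk2a*) had H3K27ac. Of the 13 muscle stem cell markers, 13 had ATAC-seq and H3K4me3 peaks, 12 had H3K27ac and none had H3K27me3. The part of cells other than MuSCs in the peaks of *Spi1*, *Tal1*, *Gata2* and *Sox17* was not tested.

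All 9 members of the heart, kidney and sclerotome groups had H3K27me3 in both replicates and none had H3K27ac. With a −log10 q limit of 5 the H3K27me3 call in both replicates was lost at all 9. In replicate 1 the −log10 q of their strongest peaks was at most 3.46 in heart, 4.23 in kidney and 2.74 in sclerotome. In replicate 2 it was above the limit at *Nkx2-5* (8.07), *Gata4* (9.02), *Gata5* (6.24), *Gata6* (8.54), *Pax2* (8.07) and *Wt1* (9.02). It was below the limit at *Pax8* (2.72), *Pax1* (3.35) and *Pax9* (4.75). *Nkx2-5*, *Gata4*, *Gata5* and *Gata6* are cardiac factors, and the Gata genes also act in endoderm. *Gata6* had the strongest H3K4me3 of the 4, at 10.4 and 7.21 fold, with H3K27me3 at 5.25 and 6.88. Its H3K4me3 summits lay 265 and 373 bp from its own start sites, and 206 and 850 bp from those of the neighbouring gene *1010001N08Rik*. *Gata5* had H3K4me3 at 5.56 and 4.01 and H3K27me3 at 4.88 and 5.83, in the shortest domains of the group, 1.23 and 3.01 kb. *Gata4* had H3K4me3 at 3.95 and 4.01 and H3K27me3 at 5.14 and 7.19. Its strongest ATAC-seq peak in replicate 1 reached 77.3 fold (−log10 q of 675) over 122 bp, 2915 bp from the nearest start site. No peak of replicate 2 overlapped it, and the strongest ATAC-seq peak of *Gata4* in replicate 2 was 6.59 fold. *Nkx2-5* had H3K27me3 at 5.25 and 6.85 fold, no H3K4me3, and ATAC-seq in replicate 1 only, at 9.19 fold.

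*Pax2*, *Pax8* and *Wt1* direct the formation of the kidney, and *Pax8* also that of the thyroid. *Pax2* and *Wt1* had both marks, with H3K27me3 at 4.88 and 6.85 fold for *Pax2* and 5.63 and 7.19 for *Wt1*, and H3K4me3 at 12 and 5.81 for *Pax2* and 5.21 and 3.81 for *Wt1*. *Pax8* was at the margin of detection, with 2 and 3 H3K27me3 peaks over 1.23% and 3.33% of its promoter, folds of 3.38 and 4.45, and a −log10 q of 0.454 in replicate 1. None of these peaks overlapped a peak of the other replicate. It had no H3K4me3, and ATAC-seq in replicate 1 only, at 8.17 fold. The sclerotome factors *Pax1* and *Pax9* had similar H3K27me3, at 4.88 and 4.79 fold and at 4.50 and 5.48 fold. They differed in H3K4me3, which was 4.49 and 3.81 fold at *Pax9* and absent from both lists at *Pax1*, and in ATAC-seq, which was 18.5 and 7.46 fold at *Pax9* and at *Pax1* was listed in replicate 1 only, at 11.9 fold.

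By lineage, H3K27me3 in both replicates was therefore listed at 87.5% of the neural and glial genes, 66.7% of the endoderm genes, 71.4% of the blood and spleen genes and all of the heart, kidney and sclerotome genes, against 4.81% in the background. With a −log10 q limit of 5 the counts were 6 of 16, 1 of 9, 3 of 7, 0 of 4, 0 of 3 and 0 of 2 in the same order. The order of the lineages thus changed with the limit, and it also differed between the replicates. In the same order, the median −log10 q of the strongest H3K27me3 peak was 4.66, 3.77, 5.99, 3.45, 2.74 and 2.42 in replicate 1. In replicate 2 it was 7.16, 4.4, 9.02, 8.3, 8.07 and 4.05. The groups have 2 to 16 genes, and differences between them were not tested. The blood and spleen group was the only one without a gene in the state of H3K27me3 without H3K4me3, and endoderm had the smallest share with both marks, 22.2%.

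H3K27me3 reached beyond the start sites. The members' H3K27me3 peaks covered a median of 32.9% of the promoter in replicate 1 and 51.5% in replicate 2, against 3.36% and 4.93% over all protein-coding genes marked in those lists. After joining peaks no more than 3 kb apart, the median domain of the members was 11.7 kb in replicate 1, made of 15 peaks, and 15.4 kb in replicate 2, made of 21 peaks. For all marked protein-coding genes the medians were 0.836 and 1.49 kb. Long domains were not particular to the members, since the marked genes among 39 Hox genes had medians of 17.6 and 68 kb. H3K27me3 covered a median of 25.1% and 46% of the promoters of these Hox genes. For the marked genes among 38 other genes of the members' families, the median domain was 5.1 and 5.15 kb. The members' domains ranged from 0.405 kb at *Pax8* to 34.4 kb at *Pax6* in replicate 1, and from 1.87 kb at *Neurog3* to 33.7 kb at *Pax6* in replicate 2. None of the 9 pairs of members less than 1 Mb apart shared their longest domain in either replicate, including *Pdx1* and *Cdx2*, *Olig1* and *Olig2*, *Nkx2-1* and *Pax9* (155 kb apart), and *Nkx2-2* and *Pax1* (168 kb apart). H3K27ac was far away. The nearest H3K27ac peak lay a median of 116 kb from a start site of the member in each replicate, within 50 kb for 10 members in replicate 1 and 9 in replicate 2, and within 10 kb for 3 and 1. The largest distance was 569 kb, at *Sox2* in both replicates. For 14 myogenic factors the median distance was 0 kb in both. It was 22.5 and 23 kb for the 38 other genes of the members' families, and 2.37 and 7.59 kb for the 39 Hox genes. The distance was not computed for all protein-coding genes.

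CpG content differed between marked and unmarked members. In 1001 bp around the start site with the highest CpG ratio, 29 of 41 members had a CpG observed over expected ratio of at least 0.6 with at least 55% GC, here called CpG-rich, against 44.5% of protein-coding genes. All 29 had H3K27me3 in both replicates. The other 5 with H3K27me3 were *Neurod2*, *Otx2*, *Gata3*, *Nkx2-5* and *Pax8*. The call depends on the start sites searched. With only the one at the gene's 5′ end, 22 members were CpG-rich (53.7%, against 38.3% of protein-coding genes). The CpG-rich share of the 34 members with H3K27me3 then fell from 85.3% to 64.7%. Of the 4 members with no H3K27me3, none was CpG-rich, and *Hnf4a* (0.306), *Gata1* (0.306) and *Spi1* (0.341) had, with *Pax8* (0.338), the lowest ratios of the 41. *En1* was the exception, with a ratio of 0.764 but a GC content of 51.1%. CpG-rich promoters in general seldom carried the mark, since H3K27me3 was listed in both replicates at 8.28% of the 9763 CpG-rich protein-coding genes and at 2.03% of the 12175 others, while H3K4me3 was listed at 94.6% and 33.6% of them.

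**Figure D5:**
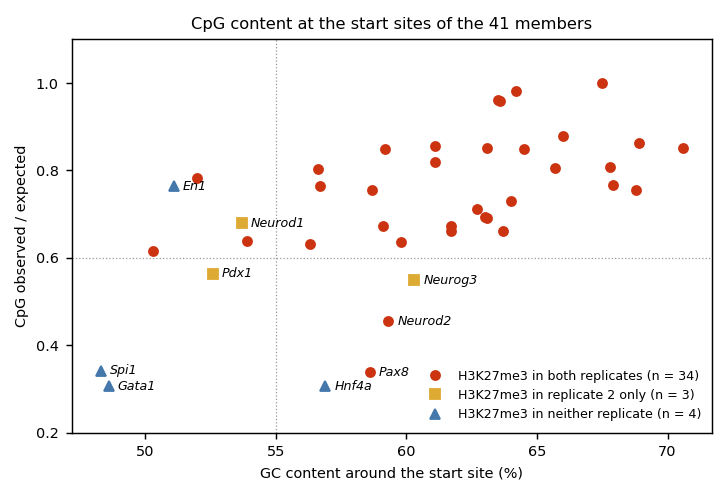
CpG observed over expected ratio (y axis) against GC content in % (x axis) in 1001 bp around the start site with the highest ratio, for the 41 members, by H3K27me3 call; dotted lines mark a ratio of 0.6 and 55% GC. All 29 members above both lines have H3K27me3 in both replicates, and Hnf4a, Gata1 and Spi1, with none, lie between 0.306 and 0.341.

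The relatives of these genes, 38 other protein-coding members of the same Gata, Pax, Sox, Nkx and further families, had fewer H3K27me3 promoters and more H3K27ac. H3K27me3 in both replicates was listed at 15 of 38 relatives (39.5%), both marks at 10 (26.3%) and H3K27ac at 10 (26.3%), and their H3K4me3 was stronger, with a median fold of 12.9 and 11.2 against 5.53 and 4.01 over all members with a peak in those lists. *Pax7* is one of these relatives. Of 39 Hox genes, the positional regulators of the body axis, 28 had H3K27me3 (71.8%), 22 had both marks (56.4%) and 14 had H3K27ac (35.9%), among them *Hoxa9*, *Hoxa10*, *Hoxc6* and *Hoxc9*. All 14 myogenic factors had ATAC-seq and H3K4me3 peaks in both replicates and 11 had H3K27ac. Among them H3K27me3 was listed in both replicates only at *Pax3*, the embryonic paralog of *Pax7*, which had both marks and no H3K27ac in either replicate. The same held for 21 of the 22 members with both marks, the exception being *Tal1*, and for 631 of the 845 protein-coding genes with both marks. As shares of whole lists, that was 51.2% of the 41 members and 2.88% of protein-coding genes. The differences between these lists are descriptions, and genes of 1 family or cluster are not independent of each other.

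At the level of single peaks, a larger share of the members' H3K27me3 peaks than of other genes' was found again in the other replicate. Of their 307 H3K27me3 promoter peaks in replicate 1, 269 (87.6%) were met by a peak of replicate 2. In the reverse direction it was 225 of 375. Over the promoter peaks of all protein-coding genes the shares were 72.9% and 40.2%. H3K4me3 peaks of the members overlapped in 73.3% of cases in replicate 1 and 97.1% in replicate 2, against 88.2% and 99.2%. ATAC-seq peaks did so in 60.2% and 77.8%, against 76.8% and 88.9%. Only 1 of the members' 9 H3K27ac peaks in replicate 1 and 1 of 2 in replicate 2 overlapped, both at *En1*.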

How the data were processed

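MuSCs were profiled by ATAC-seq and by ChIP-seq for 3 histone marks. According to the methods and the labels' processing notes, the authors trimmed reads with Trim Galore 0.6.10, aligned them to mm10 with BWA 0.7.17-r1188, removed low-quality, duplicate and blacklisted reads with SAMtools 1.5, Sambamba and bedtools, used deepTools 3.5.5 to shift ATAC-seq alignments for the Tn5 offset, and called peaks in each library with MACS2 2.2.6. The deposited lists give the authors' fold enrichment at the summit (a ratio over local background), p-value and q-value as −log10, and a score made from 1 of them. Fold, q and position were used within a list, and p only to state where the H3K27me3 lists end. Read numbers are not in the lists, so depth is unknown. Inputs and editing samples were not analysed here.

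Peaks on 21 assembled chromosomes (140716 and 94382 ATAC-seq, 20512 and 18001 H3K4me3, 6064 and 10458 H3K27me3, 24209 and 18584 H3K27ac) were overlapped by at least 1 bp with promoters of GENCODE M21 (55413 genes). The strongest peak is that of highest fold. CpG values and sequences came from GRCm38.p6. The members, lineages, comparison lists and markers were chosen with earlier results of these data known, so no list was tested. Every member is named, with fold values for those with H3K27me3 or H3K27ac in both replicates and those whose replicates disagreed on H3K27me3. Relatives were found by family name. On simulated peaks, 200 of 200 planted genes were recovered. Python 3.11.15, numpy 2.4.6, pandas 2.3.3 and matplotlib 3.10.9 were used.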

Additional observations from a re-analysis of the deposited data

How the results depend on the processing

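A −log10 q limit of 5 in every list lowered the members with H3K27me3 in both replicates from 34 to 10, those with both marks from 22 to 7, and raised those with no peak in any list from 1 to 4. Over all protein-coding genes the H3K27me3 share fell from 4.81% to 0.501%. The share of those genes with both marks is not given for that limit. By lineage that limit left 6 neural and glial, 1 endoderm and 3 blood and spleen members with H3K27me3 in both replicates, and 0 of heart, 0 of kidney and 0 of sclerotome. In replicate 2 alone, the strongest peaks of heart and kidney members reached a −log10 q of 9.02. The number with no peak in any list was 2 with promoters of 1 kb either side and 2 with 1 start site per gene, *Hnf4a* and *Gata1* in each case. Accepting a peak in either replicate gave 3 members with H3K27ac. Using 1 replicate alone gave 1 to 3 members with H3K27ac (3 without replicate 2, with *Tal1* and *Spi1* added) and 2 to 3 with no peak in the lists left. The other counts, for H3K27me3 peaks of a q of at most 0.05, summits inside the promoter, the gene body added and all settings above, stayed within 1.5 times the reported value. Within that range, 1 start site per gene lowered the members with both marks from 22 to 16. The genes lost were *Nkx2-2*, *Pax6*, *Gata3*, *Pax5*, *Gata4* and *Pax9*. The number of lists with a peak changed for 31 of 41 members under the −log10 q limit of 5, 12 with 1 start site, 8 with promoters of 1 kb, 2 with the gene body, 1 with the q limit of 0.05 and 0 with summits. No paired analysis was possible because the results come from no test, and the labels do not say whether the same replicate number in different assays marks the same cells. Read depth is unknown, so that a missing peak does not show a missing mark.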
